A study of Rattus norvegicus with 7 samples.

Results

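The Rtl1-antisense miRNAs are the microRNAs encoded in and beside the transcript that runs against the retrotransposon-derived gene Rtl1, within the imprinted Dlk1-Dio3 region. They were taken by name: rno-miR-431, rno-miR-433-3p, rno-miR-127-3p, rno-miR-127-5p, rno-miR-434-3p, rno-miR-434-5p, rno-miR-136-5p, rno-miR-136-3p, rno-miR-337-3p and rno-miR-337-5p, written without the species prefix from here on. All 10 have probes on the array, among 719 rat miRNAs. The cells were rat primary skeletal muscle cells (RSkMC), obtained at low passage from newborn limb muscle and bought from a cell collection, on day 11 of differentiation in a medium low in horse serum. One group of 3 samples was untreated, and a second of 4 samples differentiated with recombinant interleukin-6 (IL-6) at 1 ng/ml, a cytokine made by working muscle among other tissues. The titles give these groups, while the growth text of the control samples names IL-6 too. Each sample gave total RNA for 1 array in 1 colour.

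In the Dlk1-Dio3 region the protein-coding genes Dlk1, Rtl1 and Dio3 are read from the paternal chromosome, and long non-coding RNAs that carry many miRNAs and snoRNAs are read from the maternal one. The maternal antisense transcript of Rtl1 is cut into hairpins whose mature miRNAs are fully complementary to the Rtl1 message and can direct its cleavage. miRNAs of the region are known to be high in embryonic and regenerating muscle and to fall as muscle matures. For the members with a described part in muscle, miR-431 represses Pax7, a factor that keeps satellite cells undifferentiated, and miR-127 promotes the differentiation of satellite cells.

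The mature sequences are shown because the members share a locus, while the 8 with a sequence here share no seed. The seed is the stretch (bases 2 to 8, in capitals) that pairs with target messages. Of the 10 members, 8 matched the RefSeq table of build GRCr8. miR-127-5p and miR-136-5p are named only.
miR-337-5p: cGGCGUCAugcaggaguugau
miR-337-3p: uUCAGCUCcuauaugaugccuuu
miR-431: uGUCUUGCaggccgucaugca
miR-433-3p: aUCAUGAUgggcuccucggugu
miR-127-3p: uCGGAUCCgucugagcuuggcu
miR-434-5p: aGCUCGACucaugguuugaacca
miR-434-3p: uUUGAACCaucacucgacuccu
miR-136-3p: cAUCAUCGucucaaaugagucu

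The 8 seeds were all distinct, and none was found in any other mature miRNA of the table. The longest run shared between members was 9 bases. One such run, cgucaugca, lies in miR-431 and miR-337-5p, and the other, uuugaacca, lies in both arms of miR-434.

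The members came from 6 hairpins, all on the plus strand of chromosome 6 in GRCr8. RefSeq places 5 of them (Mir431, Mir433, Mir127, Mir434 and Mir136) inside the Rtl1 gene interval and Mir337 outside it. In the probe coordinates of the deposited files, which are on rn4, the mapped members span 10263 bases, chr6:134176784-134187046. Each of the 18 mapped probe intervals in the files is 1 base shorter than its probe, so a start or end may be off by 1 base. These coordinates were not set against an rn4 annotation. The order along the plus strand was miR-337-5p (chr6:134176784-134176799), miR-337-3p (chr6:134176813-134176832), miR-433-3p (chr6:134183287-134183300) and miR-127-5p (chr6:134184341-134184356). miR-127-3p (chr6:134184373-134184389), both arms of miR-434 (chr6:134186276-134186293 and chr6:134186314-134186330), miR-136-5p (chr6:134186992-134187013) and miR-136-3p (chr6:134187027-134187046) followed. The files give no position for miR-431.

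The Mir136 hairpin is shown because both of its arms varied most among the members. The capitals mark the stretches that the miR-136-5p and miR-136-3p probes match.
Mir136: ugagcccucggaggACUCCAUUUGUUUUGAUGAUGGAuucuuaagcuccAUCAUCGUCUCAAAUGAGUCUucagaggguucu

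The arrays detected 174 to 185 miRNAs in the control samples and 179 to 207 in the IL-6 samples. All 14 entries for muscle-specific miRNAs (miR-1, miR-133, miR-206, miR-208 and miR-499) were undetected on every array. These entries thus do not bear out the label of differentiating skeletal muscle cells. Of 8 entries for miRNAs typical of fibroblasts and smooth muscle, 6 were detected on all arrays, and none passed the test with IL-6. Their summed scaled signal ran from 23482 to 25224 intensity units in control and from 20925 to 24211 with IL-6. Entries for endothelium (2) and epithelium (9) were undetected, as were 8 of 10 for blood cells, and 2 of 7 for nerve were detected on all arrays. In bulk RNA, fewer cells of a type and less RNA per cell cannot be told apart. All control arrays lay in row 1 and all IL-6 arrays in row 2 of 1 slide, so row and treatment cannot be told apart. Separate cultures are not stated for the replicates, so a p-value here covers only the spread among these samples, which may be technical.

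IL-6 was compared with control to learn which miRNAs differ when the cytokine is present during differentiation. None of the 9 tested Rtl1-antisense miRNAs passed the threshold, where 9.39% of all 181 tested miRNAs did (limma, Benjamini-Hochberg adjusted p under 0.05). The adjusted p of the members ran from 0.286 to 1, and over the alternative settings the lowest were 0.0580 for miR-337-3p and 0.0606 for miR-136-5p, both with limma's array weights. None had an unadjusted p under 0.05 either, against 27.1% of all tested miRNAs, and none had groups that did not overlap, against 22.1%. Over the alternative settings the number of members with an unadjusted p under 0.05 (limma) ran from 0 to 3, the most with array weights and 2 with the slide column as a block. The median log2 fold change was 0.07 for the members and 0.02 for all tested miRNAs. Of the 9 members, 6 had positive and 2 had negative differences, and 1 was at the floor on all arrays. These signs depend on the scaling. The 75th percentile over all probes put the median of all tested miRNAs at -0.12 and turned miR-434-3p and miR-337-3p negative. No scaling (median 0.17) and spike-in scaling (0.18) turned miR-431 and miR-127-3p positive, and quantile normalization turned miR-127-5p to -0.01.

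**Figure D1:**
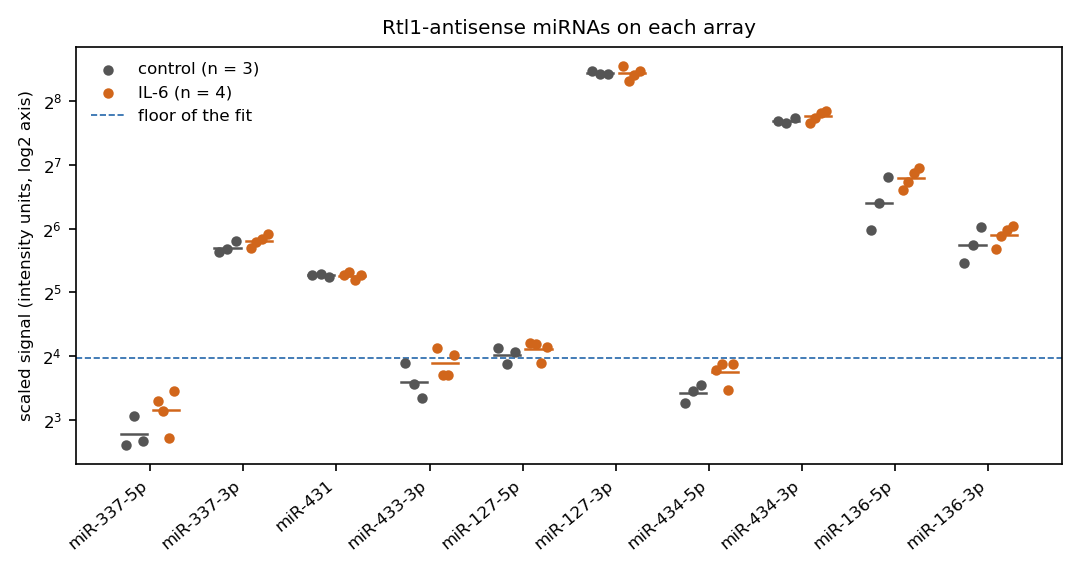
Scaled signal of the brightest probe of each of the 10 miRNAs on every array (intensity units, log2 axis), in genome order with miR-431 after miR-337, for 3 control arrays and 4 IL-6 arrays. Short lines are group means of the log2 values and the dashed line is the floor of 15.7 intensity units below which values were set to the floor before testing. Control and IL-6 points overlap for every miRNA that lies above the floor.

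Levels below are scaled signals: the processed intensity of a miRNA's brightest probe, divided by a high percentile (the 75th) of the well-measured probes of that array and put back on a common intensity scale. They can be compared between arrays for 1 miRNA, not between miRNAs, whose probes differ in length and affinity. Fold changes are on the log2 scale after a floor of 15.7 intensity units, as IL-6 minus control, with n = 3 control and 4 IL-6 arrays.

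In the main scaling miR-431, the repressor of Pax7, was the steadiest member above the floor. Its scaled signal was 38.6, 39.3 and 37.9 intensity units on control replicates 1 to 3 and 38.5, 39.8, 36.6 and 38.6 on IL-6 replicates 1 to 4. The highest and the lowest value both came from IL-6 arrays, so the control range lay inside the IL-6 range. The log2 fold change was -0.01 ± 0.03 (SE; limma, Benjamini-Hochberg adjusted p 0.909). The 95% interval of the difference ran from -5.95% to 5.21%. The second, shorter probe of miR-431 lay under the floor on every array, so these values rest on the longer probe alone. By SD within groups miR-431 ranked 15 of the 181 tested miRNAs in the main scaling, counted from the lowest. The ranks below it include 5 miRNAs at the floor on all arrays, whose SD is 0 for that reason. The spread depended on the processing. With no scaling the SE of miR-431 was 0.14, against 0.08 for miR-127-3p, and with spike-ins 0.11 against 0.05. With the mean of probes miR-431 had the lower SE, 0.02 against 0.05.

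miR-127-3p, the main arm of the miR-127 hairpin, gave 355, 344 and 342 intensity units in control and 375, 317, 340.3 and 355 with IL-6. Its IL-6 arrays again lay on both sides of the controls. IL-6 minus control was -0.0035 ± 0.06 on the log2 scale (SE; limma, adjusted p 1), with a 95% interval from -0.15 to 0.14 on that scale. The sign of so small a value is not informative, and it turned under several settings. The second, shorter probe of miR-127-3p gave 0.02.

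miR-127-5p, the other arm, lay close to background. Its scaled signal was 17.4, 14.7 and 16.7 intensity units in control and 18.5, 18.3, 14.8 and 17.7 with IL-6. It was well above background on 1 of 3 control and 3 of 4 IL-6 arrays, and 1 array of each group was at the floor. Its log2 fold change was 0.08 ± 0.07 (SE; limma, adjusted p 0.590), with a 95% interval from -0.09 to 0.25 on the log2 scale.

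miR-434-3p gave 205, 202 and 213 intensity units in control and 202, 213, 225 and 229 with IL-6. IL-6 replicate 1 lay below all controls, and IL-6 replicates 3 and 4 lay above them. The log2 fold change was 0.07 ± 0.05 (SE; limma, adjusted p 0.477), and the 95% interval ran from -3.61% to 14.3%. Its partner arm miR-434-5p gave 9.55, 10.9 and 11.7 in control and 13.7, 14.7, 11.1 and 14.6 with IL-6. All 7 values of miR-434-5p were under the floor, so it has no measured difference. The scanner software called miR-434-5p detected on 1 of 3 control and 4 of 4 IL-6 arrays. It was thus tested through the IL-6 group alone, where its mean scaled signal was higher (13.5 against 10.7 in control). With the floor lowered to 0.5 of its value miR-434-5p gave 0.33 ± 0.11 (SE; limma, adjusted p 0.0987). With total gene signal it gave 0.92 ± 0.28 (limma, adjusted p 0.129). The detection filter favours a positive difference here, so these estimates are no support for a rise.

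miR-433-3p was close to the floor as well, at 14.8, 11.9 and 10.095 intensity units in control and 17.4, 13.0, 13.0 and 16.1 with IL-6. It was well above background on 0 of 3 control and 2 of 4 IL-6 arrays, and 5 of the 7 arrays were at the floor. The fitted 0.05 ± 0.04 (SE; limma, adjusted p 0.592) therefore rests on 2 arrays above the floor. No fold is given for it, since the bright group's mean did not exceed the bound set by the dim group. The fitted value was 0.29 ± 0.15 with the floor lowered to 0.5 of its value and 0.61 ± 0.39 with total gene signal, and passed in neither (limma, adjusted p 0.248 and 0.513).

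miR-337-3p gave 49.4, 51.2 and 55.8 intensity units in control and 52.0, 55.4, 57.0 and 60.2 with IL-6. The groups overlapped, with IL-6 replicates 3 and 4 above all controls. The log2 fold change was 0.11 ± 0.06 (SE; limma, adjusted p 0.364), with a 95% interval from -3.35% to 20.1%. miR-337-5p, from the same hairpin, was not well above background on any array and was not tested. Its scaled signal was 6.10, 8.37 and 6.38 in control and 9.83, 8.82, 6.56 and 10.9 with IL-6, all under the floor, and it was called detected on 0 of 3 and 2 of 4 arrays.

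The miR-136 arms had the widest spread among the members. The miR-136-5p signal was 62.9, 84.1 and 113 intensity units on control replicates 1 to 3 and 97.5, 107, 117 and 123 on IL-6 replicates 1 to 4. Control replicates 1 and 2 lay below all IL-6 arrays, and control replicate 3 lay among them. The log2 fold change of 0.39 ± 0.20 was the largest of the members and did not pass (SE; limma, adjusted p 0.286, exact permutation p 0.143). The 95% interval ran from -6.39% to 84.6%, so a rise of that size and a small decrease both lie within it.

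miR-136-3p followed with 43.9, 53.5 and 65.2 intensity units in control and 51.1, 59.0, 63.1 and 65.9 with IL-6. Here control replicate 3 lay above 3 of the IL-6 arrays. Its log2 fold change was 0.15 ± 0.15 (SE; limma, adjusted p 0.673), with a 95% interval from -14.1% to 44.0%. Within-group SDs were 0.29 (log2) for miR-136-5p and 0.22 for miR-136-3p, ranks 178 and 171 of the 181 tested from the lowest, and the median was 0.09. Between the lowest and the highest array the signal differed 1.96-fold for miR-136-5p and 1.50-fold for miR-136-3p. Leaving out control replicate 1 gave 0.23 for miR-136-5p, and leaving out control replicate 3 gave 0.60 ± 0.15 (SE; limma, adjusted p 0.0643). The same omissions gave 0.052 and 0.30 for miR-136-3p, and neither passed.

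**Figure D2:**
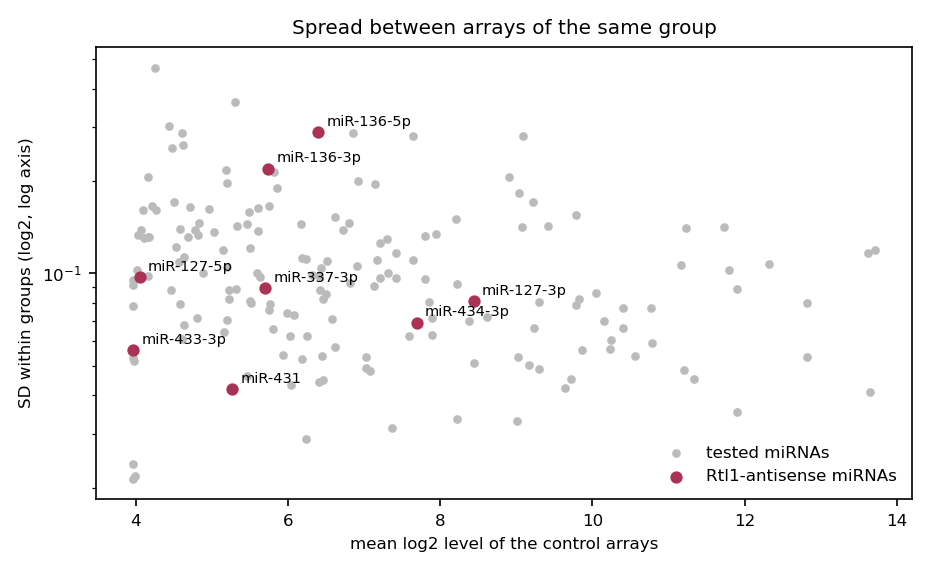
SD of the log2 level between arrays of the same group (log axis) against the mean log2 level of the 3 control arrays, for the tested miRNAs with an SD above 0. The Rtl1-antisense miRNAs are coloured: miR-431 lies low at an SD of 0.04, and miR-136-5p and miR-136-3p lie high at 0.29 and 0.22.

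The arms of a hairpin come from the same precursor, so the change of the 3p arm was set against that of the 5p arm on each array. This was possible for miR-127 and miR-136, since an arm of miR-434 and of miR-337 was never above the floor. For miR-136 the log2 signal of 3p minus 5p was -0.65 ± 0.13 (SD, n = 3; -0.79 to -0.52) in control. With IL-6 it was -0.89 ± 0.03 (SD, n = 4; -0.93 to -0.85). With the brightest probe of each arm the groups did not overlap. The arm difference was 0.24 lower with IL-6 on the log2 scale. Its exact permutation p was 0.0286, the smallest that 35 ways of dividing the arrays allow. Adjusted over the 2 hairpins, the exact p of 0.0571 did not pass. With normexp background the difference was -0.15 with an exact permutation p of 0.0857. The separation also depended on the probe. From the second, shorter probes, the log2 levels of 3p and 5p were 5.19 and 5.80 on control replicate 3. They were 4.99 and 5.48 on IL-6 replicate 1, so with the second probes the groups overlapped. With the mean of probes the arm difference was -0.21, with an exact permutation p of 0.0286. The control values fell with each slide column (-0.52, -0.65 and -0.79 in columns 1, 3 and 4), and the IL-6 values of those columns were -0.93, -0.89 and -0.90. The IL-6 minus control difference within columns was therefore -0.41, -0.24 and -0.12. Exchanging labels only within these 3 columns, an exact test chosen after the data were seen, gave p = 0.25, the smallest it allows. For miR-127 the 3p minus 5p difference was 4.39 ± 0.06 (SD, n = 3) in control and 4.31 ± 0.13 (SD, n = 4) with IL-6, with overlapping groups and an exact permutation p of 0.314. In that hairpin the 5p arm was at the floor on 2 arrays.

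**Figure D3:**
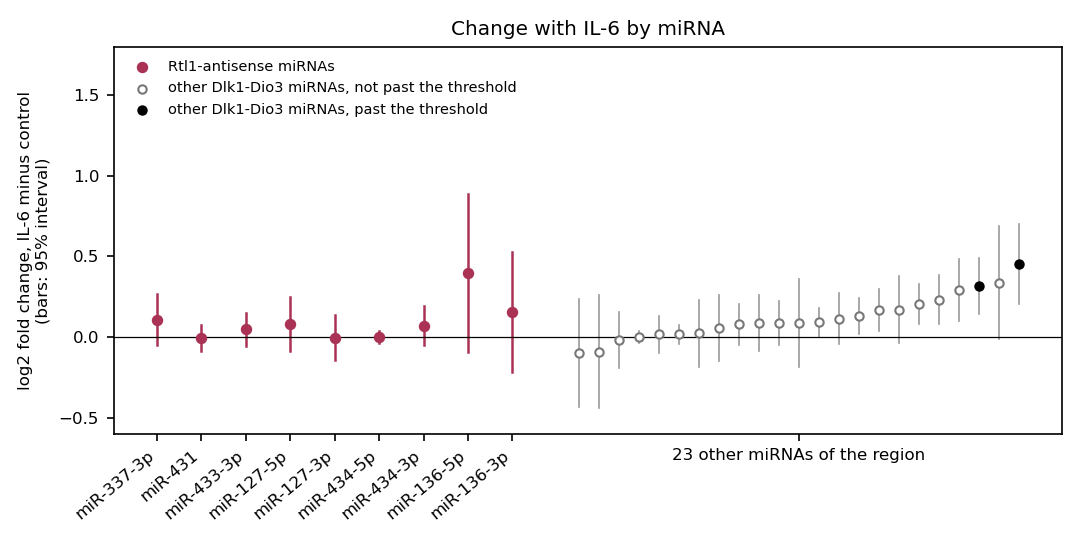
Log2 fold change, IL-6 minus control, of the 9 tested Rtl1-antisense miRNAs and of the 23 other tested miRNAs of the Dlk1-Dio3 region in order of size, with 95% intervals from limma. The intervals of all 9 members cover 0, and the 2 filled points, miR-382-5p and miR-376a-3p, are the other miRNAs of the region that passed the threshold.

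Other miRNAs of the region were described from a list by hairpin name, which is not complete: miR-433-5p, for example, is not on it. Of the 79 entries on the list, 23 were tested and 50 were detected on no array. With IL-6, 2 rose and none fell, where 4.97% of all tested miRNAs rose and 4.42% fell. miR-376a-3p changed by 0.46 ± 0.10 and miR-382-5p by 0.32 ± 0.07 on the log2 scale (SE; limma, Benjamini-Hochberg adjusted p 0.0447 for each). Neither passed with normexp background, no scaling, the 75th percentile over all probes, or the replicate or slide column as a block. The same held with 2 times the floor, outlier spots kept or no filter. Over the alternative settings the number of these other miRNAs that rose ran from 0 to 7. The list's median log2 fold change was 0.09, beside 0.07 for the Rtl1-antisense members. Of the 23, 7 had groups that did not overlap, and of the 9 members none had, beside 22.1% of all 181 tested miRNAs. These shares were not compared by a test.

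The level of 3 members rose along the slide columns. In both groups the replicate number rises with the column, so slide place and replicate order cannot be told apart. miR-136-5p, miR-136-3p and miR-337-3p were higher with each further slide column in both groups, 3 of the 9 tested members against 13.3% of all tested miRNAs. None of the 181 was lower with each column. Both probes of each were lowest on control replicate 1, in column 1, and highest on IL-6 replicate 4, in column 4, but the second probe of miR-136-3p did not rise with each column. The other Dlk1-Dio3 list held no such miRNA. The column comes from the numbers that end the array code in the file headers, and the pattern was noticed after the values were seen.

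Within columns 1, 3 and 4 the IL-6 minus control difference (log2) was 0.63, 0.48 and 0.13 for miR-136-5p. It was 0.22, 0.24 and 0.01 for miR-136-3p and 0.07, 0.16 and 0.11 for miR-337-3p. All were positive, but they come from 3 pairs of arrays and from miRNAs chosen for their column pattern. Moreover, miR-136-5p and miR-136-3p are arms of 1 hairpin. The other members above the floor on all arrays had mixed signs. In the same columns miR-431 gave -0.00096, -0.10 and 0.02. There, miR-127-3p gave 0.08, -0.02 and 0.05, and miR-434-3p gave -0.02, 0.15 and 0.11. With the slide column as a block, miR-136-5p gave 0.41 ± 0.12 (SE; limma, unadjusted p 0.0430, adjusted p 0.159). miR-337-3p gave 0.11 ± 0.03 (unadjusted p 0.0230, limma adjusted p 0.108) and miR-136-3p 0.16 ± 0.06 (adjusted p 0.231). No member passed in that fit, and no other miRNA did.

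The column pattern depends on the scaling. It was seen for 24 of the 181 tested miRNAs in the main scaling. With the median of probe ratios 5 were higher with each column, the same 3 members among them, and 3 were lower. Quantile normalization left 3 higher and 3 lower with no member among them, and there was none in either direction with the 75th percentile over all probes, no scaling or the spike-ins. The GC content of the probes was lower for the 24 (median 42.5%) than for the other 157 (median 50%). The 24 also had longer probes (median 19 against 18 bases) and a higher control level (median log2 7.80 against 6.04). A miRNA tied at the floor within a group cannot rise with each column, which favours a higher level among the 24. The 3 members lay below the median of the 24, at 6.39 for miR-136-5p, 5.74 for miR-136-3p and 5.70 for miR-337-3p. Without the pattern, miR-127-3p was at 8.44 and miR-434-3p at 7.69. Of the 9 tested members, miR-136-5p (34.8%), miR-136-3p (38.1%) and miR-337-3p (42.9%) had the probes lowest in GC, and miR-431 and miR-433-3p the highest (66.7% each). Probes of miR-136-5p, miR-136-3p and miR-337-3p were also the longest of the 9, at 23, 21 and 21 bases. The part of probe GC, probe length, signal level and slide position or replicate order in the spread of these 3 miRNAs was not tested.

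**Figure D4:**
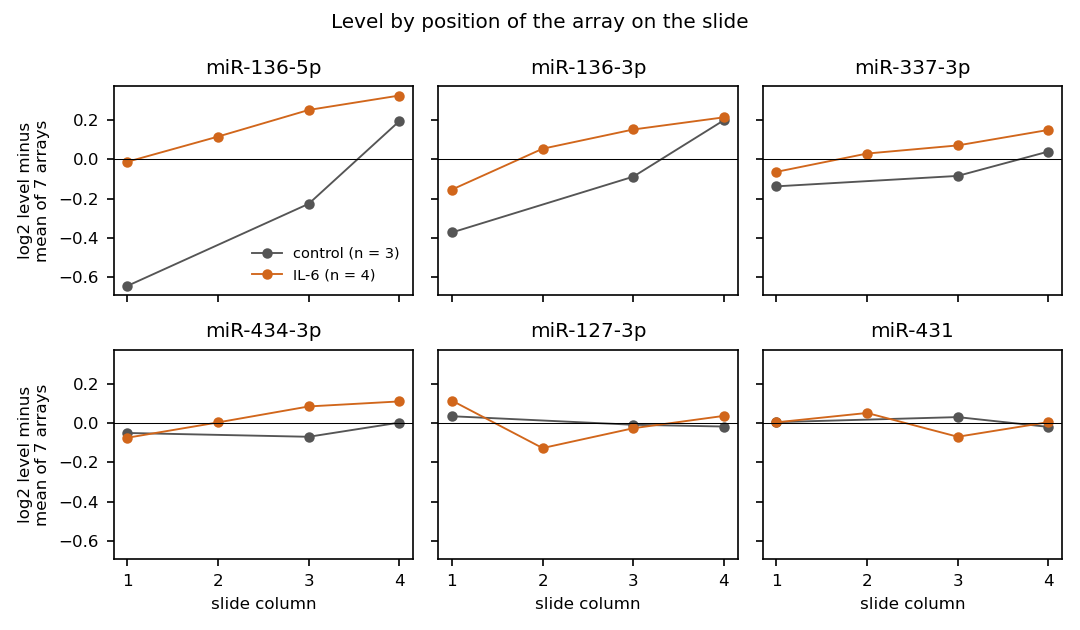
Log2 level minus the mean of the 7 arrays against the slide column of the array, for 6 members, with the 3 control arrays (columns 1, 3 and 4) and the 4 IL-6 arrays (columns 1 to 4) as separate lines. miR-136-5p, miR-136-3p and miR-337-3p rise with each column in both groups under the main scaling, and miR-434-3p, miR-127-3p and miR-431 do not.

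For each member detected on all 7 arrays, the most alike of the other 167 such miRNAs were found by the SD of the log2 difference over the arrays, as a description. miR-127-3p was closest to miR-99b-5p (SD 0.01), then miR-324-5p (0.04) and miR-487b-3p (0.04), the last a miRNA of the same region. miR-434-3p was closest to miR-16-5p (0.02), miR-26a-5p (0.04) and miR-34a-5p (0.04). miR-337-3p was closest to miR-26a-5p (0.04), miR-16-5p (0.04) and miR-434-3p (0.04), the only case of another member among the closest 3.

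miR-431 was most like miR-22-5p (0.05), miR-125b-5p (0.05) and miR-93-5p (0.05). miR-136-3p was nearest to miR-101a-3p (0.05), miR-218a-5p (0.09) and miR-101b-3p (0.09). For miR-136-5p the nearest were miR-193a-3p (0.12), miR-101a-3p (0.13) and miR-29b-3p (0.13), where its median over all was 0.33. The partner arm miR-136-3p was not among them. miR-127-5p was nearest to miR-25-3p (0.06), miR-376b-3p (0.07) and miR-7a-5p (0.07), and miR-433-3p to miR-324-5p, miR-25-3p and miR-143-5p (0.03 to 0.04), with values at the floor in both members.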

How the data were processed

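The authors extracted spot intensities with Agilent Feature Extraction 10.10.1.1 (per the headers and the submitters' processing notes). The deposited intensity used here is the background-subtracted processed signal, linear and unscaled. The series' value table matched each scanner file's total probe signal on all 15095 spots (tolerance 0.001).

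Control spots and outlier spots (2.88% to 3.84% of 14380 others) were left out. Spots were averaged per probe, scaled to the 75th percentile of 268 probes that were well above background throughout (at least a share of 0.5 of their spots), floored at 15.7 and put on the log2 scale. Each miRNA took its brightest probe and was tested if the scanner software detected it on every array of at least 1 group. Members had 6 to 10 spots a probe and array. limma 3.58.1 in R 4.3.3 was run on all 181 tested miRNAs, with Benjamini-Hochberg adjustment and a threshold of 0.05; the fit was tested on simulated data. The median SE was 0.07, and the number of arrays limits the precision. Arm differences had exact 2-sided permutation tests. All 10 members were named, with the other Dlk1-Dio3 miRNAs past the threshold and the 3 closest patterns. Members, lists and tests were chosen with earlier results of these data known. Equal replicate numbers were checked for pairing.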

Additional observations from a re-analysis of the deposited data

How the results depend on the processing

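No member passed the threshold in either direction under any of the 25 alternatives to the main fit, and the median log2 fold change of the members ran from 0 to 0.20. The counts of other miRNAs moved more. The other Dlk1-Dio3 miRNAs that rose (2 in the main fit) were 0 with the 75th percentile over all probes, no scaling, normexp background, 2 times the floor, outlier spots kept, no filter, the replicate block and the slide column block, 1 with spike-in scaling, 4 with the mean of probes and 7 with array weights. Leaving out 1 array gave 0 to 2, with 1 without control replicate 3, 2 without IL-6 replicate 1 and 0 otherwise. Calls over all tested miRNAs (17 in the main fit) were 0 with the 75th percentile over all probes, no scaling, normexp, no filter and the column block, 3 with the replicate block, 4 with spike-ins, 5 with total gene signal, 11 with 2 times the floor and 47 with array weights. They ran from 0 (control replicate 1 or IL-6 replicate 3 left out) to 15, with 2 for control replicate 2 and 8 for IL-6 replicate 4. The median of the other Dlk1-Dio3 miRNAs (0.09) was 0 with no filter and with the 75th percentile of all probes, 0.26 with no scaling, 0.27 with spike-ins, and 0.17 with total gene signal and with 0.5 times the floor.

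Signs turned for miR-434-3p (-0.071) and miR-337-3p (-0.034) with the percentile of all probes and for miR-127-5p (-0.013) with quantile normalization. miR-431 turned to 0.17 with no scaling, 0.18 with spike-ins and 0.074 with normexp and 0.069 with total gene signal, and ran from -0.026 to 0.033 without 1 array. miR-127-3p turned to 0.17 with no scaling, 0.18 with spike-ins, 0.0024 with normexp, 0.0088 with the mean of probes, 0.0011 with total gene signal and 0.039 with the column block, and ran from -0.042 to 0.053 without 1 array. None of these passed. The arm difference of miR-127 turned to 0.0018 with no scaling. That of miR-136 stayed at -0.24 with 2 times the floor, where miR-127-5p is at the floor and the adjustment is over 1 hairpin, so the exact permutation p of 0.0286 was not raised. For the other changes the cause was not tested.

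Equal replicate numbers were not used as pairs in the main fit. The correlations of same-numbered arrays were 0.56, -0.10 and 0.38 across miRNAs. Arrays of the same slide column gave 0.56, 0.14 and 0.28. The value of 0.56 is from the same arrays in both lists. Whether the samples are paired by number or by column cannot be told from so few values. With the replicate block, 0 members passed and miR-136-5p gave 0.34 ± 0.14 (limma, adjusted p 0.232). For miR-433-3p, miR-434-5p and the 5p arms of miR-127 and miR-337 the signal over background is the limit.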

Other observations

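RefSeq lists a hairpin on the opposite strand over Mir434 (Mir3543) and over Mir337 (Mir3544). The mature miR-3543 (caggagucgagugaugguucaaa) is complementary to all 22 bases of miR-434-3p, and miR-3544 (aacuccugcaugacgccguuccc) is complementary to 18 bases of miR-337-5p. Neither was detected on any of the 7 arrays, with highest scaled signals of -0.67 and -1.65 intensity units, while miR-434-3p was well above background on all of them. The other arm of miR-433, miR-433-5p, was detected on no array (highest scaled signal 6.83), and neither were miR-540-5p, miR-540-3p and miR-665.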
